A study of Mus musculus with 8 samples.

Results

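The Hox genes of the 4 mouse clusters were examined in whole embryos with an allele that lowers the expression of Ott1 (current symbol Rbm15). Members were the gene probes whose accession is a RefSeq transcript of a Hox gene. Of 38 Hox genes considered, 33 had a matched probe, 1 each, among 34967 gene probes on the array. Hoxc11, Hoxc12, Hoxd4, Hoxd8 and Hoxd12 had none. Mice with the Ott1 allele were crossed and their embryos were dissected at E11.5 (embryonic day), genotyped and frozen, and the RNA of each whole embryo was hybridised to a CodeLink one-colour oligonucleotide array. There were 3 homozygous embryos (numbers 2, 7 and 16), 3 heterozygous embryos (numbers 3, 10 and 15) and 2 wild type embryos (numbers 11 and 13). The labels name no Cre, transgene or agent, and describe the allele only by its low expression. The level of Ott1 itself is not analysed here, because no probe was matched to Rbm15, so the genotype labels were not checked against it. The study's title names the control of gene expression by this RNA-binding protein.

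Hox genes encode homeodomain transcription factors that give cells their position along the head-to-tail axis. They lie in 4 clusters, a to d, and the order of genes in a cluster follows the order of their expression along the axis: low paralog numbers are expressed up to the hindbrain, and high numbers are limited to the trunk, the tail and the growing limbs. Genes with the same number in different clusters are paralogs that share much of their function. Paralog groups 1 to 4 are called anterior here, 5 to 8 central and 9 to 13 posterior. Posterior genes shape the lumbar, sacral and tail regions, the kidney and urogenital tract and the limb skeleton.

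Promoters are shown for members with some of the larger differences between genotypes: Hoxa9, Hoxa11 and Hoxd9, which had lower values in homozygous embryos, and Hoxd3, which had a higher one. Each is the RefSeq window of 250 bases before to 50 bases after the annotated start in GRCm38.p6, written 5′ to 3′ on the gene's strand, with every CpG dinucleotide in capitals.
Hoxa9 promoter, chr6:52227321-52227620, minus strand: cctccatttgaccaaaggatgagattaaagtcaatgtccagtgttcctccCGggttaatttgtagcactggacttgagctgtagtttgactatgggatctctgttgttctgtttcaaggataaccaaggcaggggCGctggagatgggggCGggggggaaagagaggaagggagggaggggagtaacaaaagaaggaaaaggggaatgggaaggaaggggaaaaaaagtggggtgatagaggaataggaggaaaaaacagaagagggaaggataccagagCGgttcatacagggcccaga
Hoxa11 promoter, chr6:52245761-52246060, minus strand: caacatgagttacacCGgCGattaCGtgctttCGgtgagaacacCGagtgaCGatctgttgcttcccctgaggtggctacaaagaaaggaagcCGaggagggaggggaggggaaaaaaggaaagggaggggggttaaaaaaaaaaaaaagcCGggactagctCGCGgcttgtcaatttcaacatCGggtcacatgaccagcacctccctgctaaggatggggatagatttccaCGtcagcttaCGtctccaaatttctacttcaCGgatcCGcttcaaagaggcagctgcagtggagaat
Hoxd9 promoter, chr2:74697513-74697812, plus strand: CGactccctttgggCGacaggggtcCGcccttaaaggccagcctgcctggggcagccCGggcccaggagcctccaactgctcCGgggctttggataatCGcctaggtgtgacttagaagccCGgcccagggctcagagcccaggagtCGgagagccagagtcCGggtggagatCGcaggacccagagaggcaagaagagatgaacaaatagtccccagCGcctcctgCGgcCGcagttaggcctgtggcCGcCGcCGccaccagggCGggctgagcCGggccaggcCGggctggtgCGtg
Hoxd3 promoter, chr2:74711743-74712042, plus strand: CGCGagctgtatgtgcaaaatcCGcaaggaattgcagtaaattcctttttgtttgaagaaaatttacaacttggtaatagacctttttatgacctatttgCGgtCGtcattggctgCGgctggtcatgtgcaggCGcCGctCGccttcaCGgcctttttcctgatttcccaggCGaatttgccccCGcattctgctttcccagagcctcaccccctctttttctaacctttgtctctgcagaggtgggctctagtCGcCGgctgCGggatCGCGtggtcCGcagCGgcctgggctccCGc
The Hoxa9 window holds 4 CpG dinucleotides, the Hoxa11 window 15, the Hoxd9 window 20 and the Hoxd3 window 20, where the median over all 32851 promoters of the same length is 7. None of these 4 windows holds TTTATNG, the core letters of a Cdx site, TGATTTAT, a composite Pbx-Hox site, or TATAAA, the TATA box, on either strand. The Cdx letters lie in 2 of the 24 Hox windows in the table and in 10.9% of all promoters, the Pbx-Hox letters in 0 of 24 Hox windows and in 1.0% of all, and the TATA letters in 4 of 24 Hox windows and in 13.6% of all. TTTATAG holds a match to both the Cdx and, on the other strand, the TATA letters.

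Signal was the spot's mean brightness less its local background, quantile-normalized over the 8 arrays and given on a log2 scale, so a difference of 1 is a doubling. Arrays had 22526 to 26619 gene probes above background, and 28 to 31 of the 33 Hox probes. The median intensity before normalization was 61.4 to 87.9 on the homozygous arrays and 48.3 to 57.6 on the other 5. Embryo 16, a homozygous one, stood apart: its array correlated with the others at no more than 0.968, while all other pairs lay at 0.973 or above, and it had 1634 gene probes with no usable spot against 206 to 616 elsewhere. The 4 Y-linked probes averaged 4.04 in homozygous embryo 16, 4.15 and 3.92 in heterozygous embryos 3 and 15, and 7.48 to 7.80 in the other 5 embryos. In whole-embryo RNA, fewer cells of a type and less RNA per cell cannot be told apart.

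Homozygous embryos had lower signal than the other embryos at most posterior Hox probes outside the b cluster, by 1.23-fold to 1.62-fold in paralog groups 9 to 11, while the medians of anterior and central probes lay closer to that of all probes. No Hox probe passed the test in any comparison. Of the 33 probes, 30 were above background in every embryo of 1 or more genotypes and were tested with limma, with p-values adjusted by the Benjamini-Hochberg method over 23388 probes. At an adjusted p under 0.05, 0 of 30 Hox probes and 25 probes in all (0.107%) differed between the homozygous and the other 5 embryos. At an unadjusted p under 0.05, 5 of 30 Hox probes (16.7%) were lower, against 13.4% of all probes, and 1 of 30 (3.33%) was higher, against 6.63% of all. These shares lie near the background of an array on which 60.2% of all probes had a lower value in homozygous embryos.

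**Figure D1:**
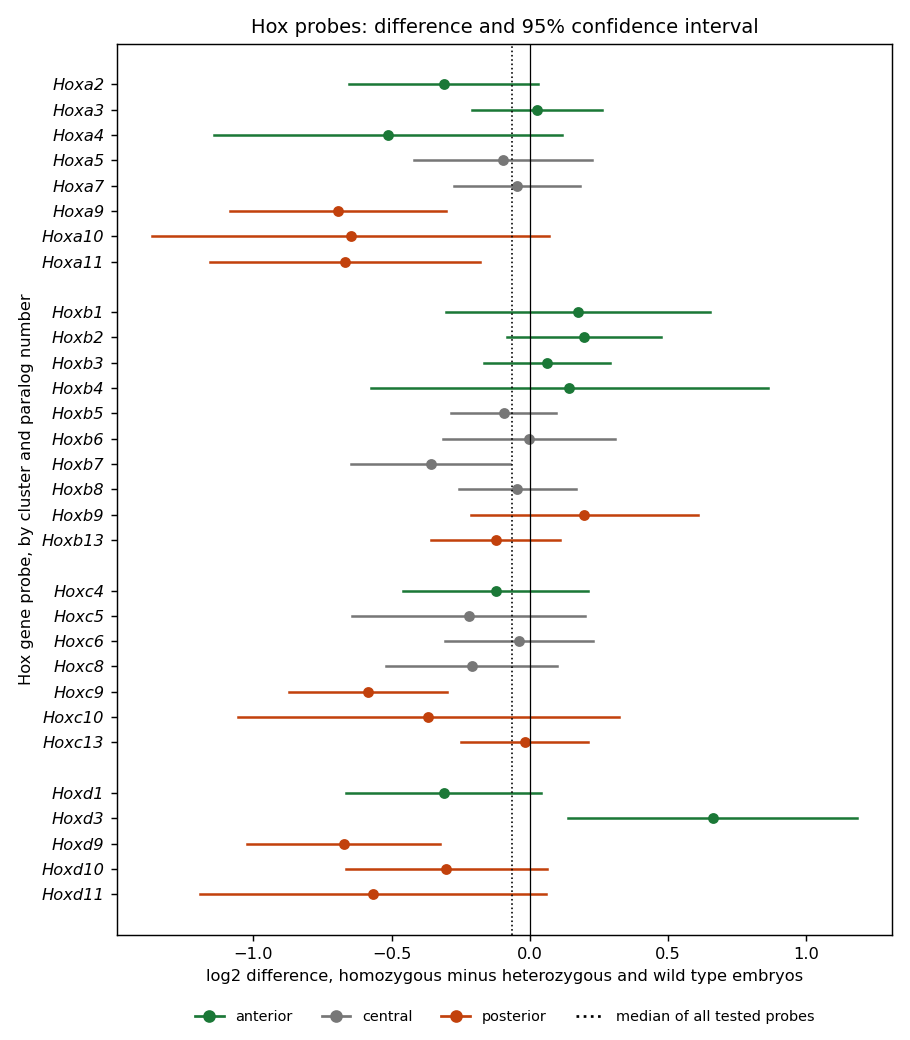
Log2 difference at each tested Hox probe, homozygous minus the heterozygous and wild type embryos (x axis), with the 95% confidence interval of limma as a line, for 30 probes ordered by cluster and paralog number (y axis). Posterior probes lie between -0.69 and 0.20, central probes between -0.36 and -0.00, and anterior probes between -0.51 and 0.66. The dotted line is the median of all tested probes, -0.06.

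The posterior genes gave the lowest values. The 11 tested posterior probes had a median difference of -0.57, with 10 lower in homozygous embryos, against a median of -0.06 over all tested probes. The 9 of them in paralog groups 9 to 11 had a median of -0.59, with 8 lower. Among the genes at the cluster ends, Hoxb13 was at -0.12 and Hoxc13 at -0.02.

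Hoxa9, a gene of the trunk and limb and of blood stem cells, had log2 signals of 6.34, 6.76 and 6.10 in homozygous embryos 2, 7 and 16, against 7.35, 6.97 and 6.83 in heterozygous embryos 3, 10 and 15 and 7.21 and 7.11 in the wild type embryos. On this quantile-normalized scale all 3 homozygous values lay below all 5 others. In the deposited values, divided by 1 factor per array, homozygous embryo 7 lay just above heterozygous embryo 15. Their intensities were 118 and 92.1, with factors of 62.1 and 49.0. The difference was -0.69 ± 0.17 (SE), a fold of 1.62 lower, with an adjusted p of 0.137 by limma.

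Hoxc9, which sets thoracic identity in spinal motor neurons, had 8.67, 9.10 and 8.84 in homozygous embryos, against 9.57, 9.44 and 9.33 in heterozygous and 9.32 and 9.63 in wild type embryos. The groups again did not overlap. The difference was -0.59 ± 0.13 (SE), or 1.50-fold lower, and its unadjusted p of 0.00132 was the lowest of the Hox probes, with an adjusted p of 0.116.

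Hoxd9, a paralog of both, had 5.68, 6.0 and 5.40 in homozygous embryos, against 6.55, 6.32 and 6.26 in heterozygous and 6.17 and 6.54 in wild type embryos. Its groups did not overlap either, and the difference was -0.67 ± 0.15 (SE), or 1.59-fold lower, with an adjusted p of 0.123. On the quantile-normalized scale, homozygous values lay below all others at Hoxa9, Hoxc9 and Hoxd9. These were 3 of 29 Hox probes with a value on every array (10.3%), against 9.51% of all such probes. At 0 of 29 Hox probes, against 4.71% of all, did they lie above all others.

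Hoxb9 was the member of the group that went the other way. It had 7.51, 7.66 and 7.45 in homozygous embryos, against 7.80, 7.56 and 7.09 in heterozygous and 7.04 and 7.24 in wild type embryos. The homozygous values lay inside the range of the heterozygous ones, and the difference of 0.20 ± 0.18 (SE) had an adjusted p of 0.553.

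Paralog groups 10 and 11 pattern the lumbosacral column and parts of the limb skeleton, and group 11 is also needed for the kidney. Hoxa11 had 5.90, 6.56 and 6.23 in homozygous embryos, against 7.22, 6.37 and 6.82 in heterozygous and 7.01 and 7.07 in wild type embryos. Heterozygous embryo 10 lay below homozygous embryo 7, and the difference was -0.67 ± 0.21 (SE), with an adjusted p of 0.178. Hoxa10 had 7.05, 8.42 and 7.72 in homozygous embryos, against 8.58, 8.04 and 7.91 in heterozygous and 8.57 and 8.80 in wild type embryos, with a difference of -0.65 ± 0.32 (SE) and an adjusted p of 0.285.

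Hoxd11 had 7.92, 9.23 and 8.71 in homozygous embryos, against 9.44, 9.05 and 8.83 in heterozygous and 9.19 and 9.43 in wild type embryos, a difference of -0.57 ± 0.27 (SE). Hoxd10 had 7.82, 8.39 and 8.23 in homozygous embryos, against 8.42, 8.76 and 8.23 in heterozygous and 8.44 and 8.40 in wild type embryos, a difference of -0.30 ± 0.16 (SE). In each of these, embryo 2 was the lowest of all 8 embryos and embryo 7 lay among the heterozygous and wild type values. Hoxc10 had 7.58, 9.03 and 8.75 in homozygous embryos, against 9.07, 8.79 and 8.77 in heterozygous and 8.48 and 9.0 in wild type embryos, so its difference of -0.37 rests on embryo 2 and is 0.07 without it.

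**Figure D2:**
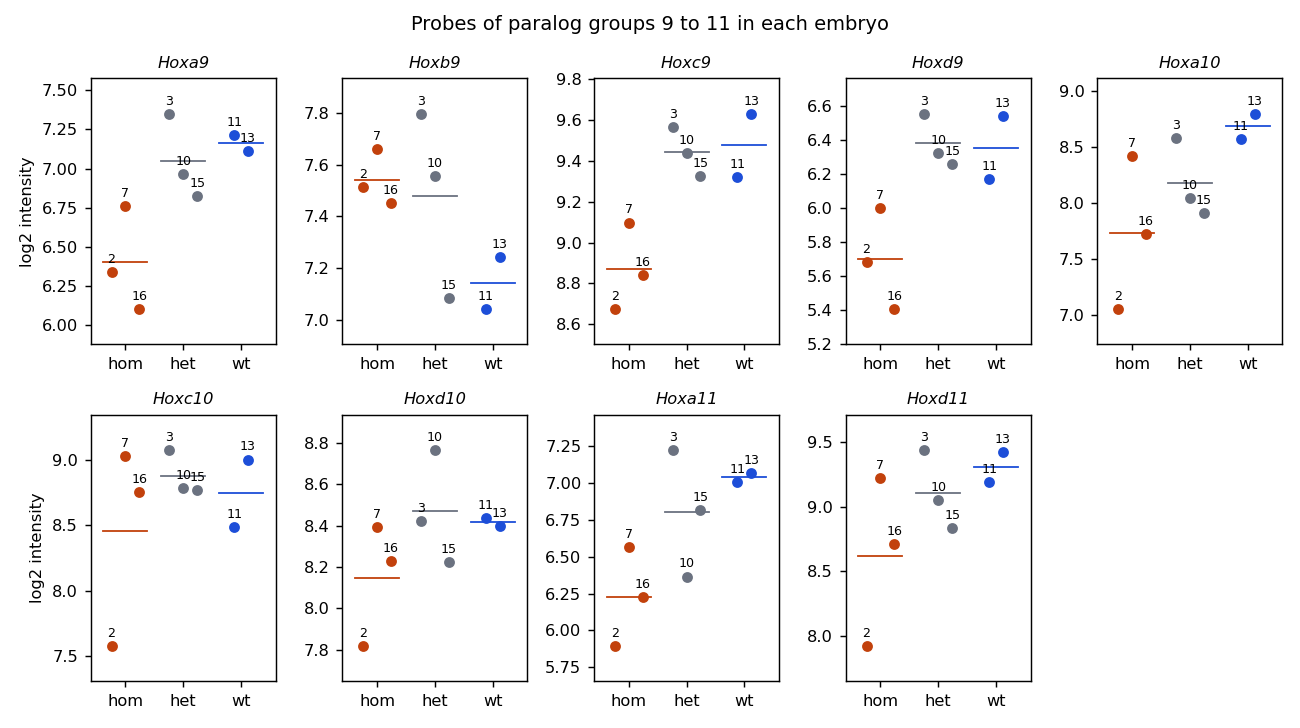
Log2 intensity (y axis) of the 9 tested probes of paralog groups 9 to 11 in each embryo, with homozygous (hom) left, then heterozygous (het) and wild type (wt). Points carry embryo numbers and horizontal lines are group means; each panel has its own axis. On this quantile-normalized scale, homozygous points of Hoxa9, Hoxc9 and Hoxd9 all lie below the others, and embryo 2 is the lowest of 8 in 6 of the 9 panels.

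The homozygous embryos differed among themselves at these probes. Embryo 2 was the lowest of all 8 embryos at 6 of the 9 probes of groups 9 to 11, and embryo 16 at 2. Taking each probe's deviation from its mean over the 8 embryos, the median over the 9 probes was -0.56, 0.06 and -0.40 in homozygous embryos 2, 7 and 16, against 0.44, 0.13 and -0.01 in heterozygous embryos 3, 10 and 15 and 0.10 and 0.39 in wild type embryos 11 and 13. Embryo 7 thus lay above heterozygous embryo 15. The same median over all tested probes was -0.02, 0.02 and -0.11 in the homozygous embryos and 0.02 to 0.04 in the other 5.

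Without embryo 2 the posterior median was -0.22 and that of groups 9 to 11 was -0.31, with 7 of 9 probes lower. Without embryo 16 they were -0.55 and -0.56, and without embryo 7 they were -0.70 and -0.82. Without embryo 2, Hoxa9, Hoxc9 and Hoxd9 were at -0.66, -0.49 and -0.66, while Hoxa10 was at -0.31, Hoxd11 at -0.22 and Hoxd10 at -0.14.

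**Figure D3:**
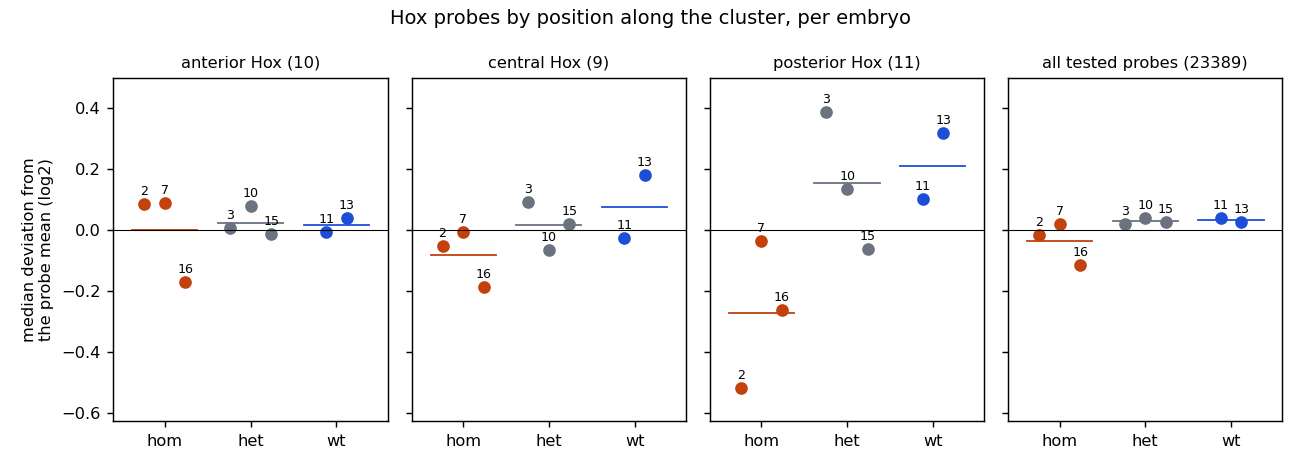
Median deviation from the probe's mean over the 8 embryos (y axis, log2) in each embryo, for 10 anterior, 9 central and 11 posterior Hox probes and for all tested probes, with homozygous (hom) left, then heterozygous (het) and wild type (wt). Points carry embryo numbers and lines are group means. Posterior values of the homozygous embryos run from -0.52 to -0.04 and those of the other 5 from -0.06 to 0.39.

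Anterior genes, which pattern the hindbrain and neck, differed in both directions. Their 10 tested probes had a median difference of 0.04, with 4 lower in homozygous embryos. Hoxd3, which helps form the first neck vertebrae, had the largest positive difference of all Hox probes. It had 6.49, 5.55 and 6.65 in homozygous embryos, against 5.53, 5.62 and 5.44 in heterozygous and 5.49 and 5.76 in wild type embryos. Embryos 2 and 16 lay above every other embryo and embryo 7 lay within the others. The difference was 0.66 ± 0.23 (SE), or 1.58-fold higher, with an adjusted p of 0.187. Without embryo 7 it was 0.99 with an adjusted p of 0.0191, the only Hox call under any setting tried in this comparison.

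The anterior probes of the b cluster had slightly positive differences on the quantile-normalized scale, those of Hoxb1, Hoxb2 and Hoxb3 turning negative under median scaling and in the deposited values, and those of the a cluster were lower or level. Hoxb1, which specifies the fourth hindbrain segment, had 9.60, 9.59 and 9.56 in homozygous embryos, against 9.34, 10.09 and 9.18 in heterozygous and 9.32 and 9.11 in wild type embryos, and heterozygous embryo 10 was the highest. Hoxb2 differed by 0.19 and Hoxb3 by 0.06. Hoxb4, which also acts in blood progenitors, had 6.93, 6.16 and 5.26 in homozygous embryos, against 6.11, 5.77 and 5.79 in heterozygous and 6.06 and 6.14 in wild type embryos, so that its homozygous values lay on both sides of the others. Its difference of 0.14 was -0.26 without embryo 2 and 0.60 without embryo 16. Hoxa4 had 6.54, 6.29 and 5.16 in homozygous embryos, against 6.60, 6.44 and 6.30 in heterozygous and 6.64 and 6.56 in wild type embryos, a difference of -0.51 that rests on embryo 16 and is -0.10 without it. Hoxa2, which sets the identity of the second pharyngeal arch, had 8.55, 8.08 and 7.93 in homozygous embryos, against 8.29, 8.51 and 8.50 in heterozygous and 8.53 and 8.66 in wild type embryos. Its difference of -0.31 had an adjusted p of 0.281 and was -0.19 without embryo 16, while Hoxa3 differed by 0.03. Hoxd1 had 5.54, 5.84 and 5.07 in homozygous embryos, against 5.80, 5.83 and 5.73 in heterozygous and 5.84 and 5.79 in wild type embryos. Its difference of -0.31 was -0.11 without embryo 16 and -0.48 without embryo 7. Hoxc4 had 6.67, 6.91 and 6.27 in homozygous embryos, against 6.78, 6.72 and 6.85 in heterozygous and 6.56 and 6.78 in wild type embryos, and its groups overlapped.

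Central genes pattern the thoracic region. Their 9 tested probes had a median of -0.10, close to that of all probes. All 9 had a lower value in homozygous embryos, as did 60.2% of all probes, and 5 of the 9 lay below the median of all probes. The 9 differences were 0.00 to 0.36 in size on the log2 scale. Hoxb7 had the largest of these differences, with 8.90, 9.34 and 8.88 in homozygous embryos, against 9.56, 9.34 and 9.35 in heterozygous and 9.44 and 9.32 in wild type embryos. It differed by -0.36 ± 0.13 (SE), with an adjusted p of 0.191. Hoxa5, needed for the lung and the neck-to-thorax transition, had 11.78, 11.69 and 11.46 in homozygous embryos, against 11.87, 11.48 and 11.72 in heterozygous and 11.61 and 12.02 in wild type embryos, and its groups overlapped. Hoxb6, at 10.44, 10.09 and 10.06 in homozygous embryos, against 10.25, 9.91 and 10.28 in heterozygous and 10.17 and 10.38 in wild type embryos, differed by -0.00. Hoxc8, which acts in thoracic vertebrae, had 9.61, 9.94 and 9.66 in homozygous embryos, against 10.20, 9.82 and 9.81 in heterozygous and 9.79 and 10.11 in wild type embryos, a difference of -0.21. Hoxa7, Hoxb5, Hoxb8, Hoxc5 and Hoxc6 lay between -0.22 and -0.04. The Hoxb8 value leaves out heterozygous embryo 10, whose spot was marked unusable.

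By cluster, the median difference was -0.41 over 8 Hoxa probes, 0.03 over 10 Hoxb probes, -0.21 over 7 Hoxc probes and -0.31 over 5 Hoxd probes. The Hoxb cluster had 5 lower and 5 higher probes, where the other clusters together had 18 lower and 2 higher. Over all probes 60.2% were lower. Below the median of all probes lay 6 of 8 Hoxa, 3 of 10 Hoxb, 5 of 7 Hoxc and 4 of 5 Hoxd probes. The even split of Hoxb belongs to the quantile-normalized scale. Under median scaling and in the deposited values 8 of 10 Hoxb probes were lower, with medians of -0.12 and -0.15. Across the 30 probes, the difference and the paralog number had a Spearman correlation of -0.47 and a Pearson correlation of -0.46. These probes share the same 8 arrays, so the values are a description across genes. Within clusters, Spearman's rho was -0.64 over 8 Hoxa probes, -0.44 over 10 Hoxb probes, -0.04 over 7 Hoxc probes and -0.30 over 5 Hoxd probes.

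The scale on which arrays were compared mattered for the sign of small differences. Under median scaling and in the deposited values, the median of all probes was -0.22 and -0.25, where each array is scaled by 1 factor. The anterior median then turned to -0.13 and -0.17, staying above that of all probes, as the Hoxb median did. The central median was -0.34 and -0.37, which lies 0.12 and 0.12 below it, and the posterior median was -0.66 and -0.70, which lies 0.44 and 0.44 below it. Relative to all probes, the posterior median lay 0.15 to 0.62 below under every setting tried, and the least was without embryo 2.

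**Figure D4:**
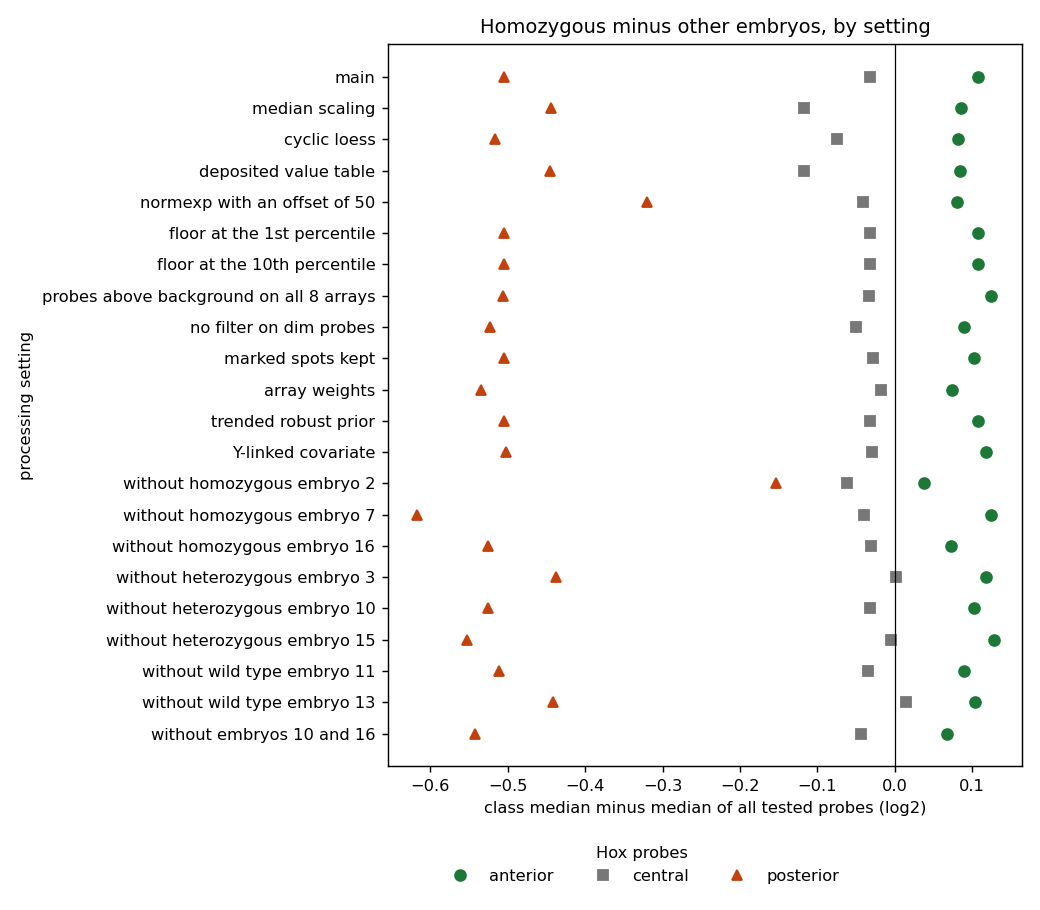
Median difference of the anterior (circles), central (squares) and posterior (triangles) Hox probes, homozygous minus the other embryos, less the median of all tested probes (x axis, log2), under the main and each alternative setting (y axis). Posterior medians lie left of 0 in all settings, from -0.62 to -0.15, and anterior medians lie right of 0, from 0.04 to 0.13.

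The comparison with wild type alone asks the same question of 3 homozygous against 2 wild type embryos, and it shares the homozygous arrays with the comparison above. The posterior median was -0.60, with 10 of 11 lower, and the largest differences were those of Hoxa10, at -0.95 ± 0.38 (SE), Hoxa11, at -0.81 ± 0.27 (SE), and Hoxa9, at -0.76 ± 0.23 (SE). Their adjusted p-values were 0.304, 0.266 and 0.239. No Hox probe passed, with 8 of 23387 probes (0.0342%) passing in all. At an unadjusted p under 0.05, 5 of 30 were lower, against 9.36% of all probes, and 0 of 30 were higher, against 5.93% of all. The 5 were Hoxa9, Hoxa10, Hoxa11, Hoxc9 and Hoxd9. Homozygous minus heterozygous embryos gave 0 Hox probes and 5 probes in all (0.0214%) past the test, with a posterior median of -0.44. There Hoxd9 differed by -0.68, Hoxa9 by -0.65, Hoxc9 by -0.57 and Hoxd3 by 0.70, with adjusted p-values of 0.368, 0.391, 0.368 and 0.414.

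In heterozygous minus wild type embryos, the medians over Hox probes were small, while the intervals of single probes were wide. By cluster, 7 of 8 Hoxa probes were lower, with a median of -0.14. Of 10 Hoxb probes 3 were lower, with a median of 0.03, where 51.5% of all probes were lower. The posterior median was -0.03 and that of all 30 was -0.02, and 0 Hox probes and 0 probes in all (0%) passed. At an unadjusted p under 0.05, 0 of 30 were lower, against 1.04% of all probes, and 0 of 30 higher, against 1.26%. The largest differences were -0.51 ± 0.38 (SE) at Hoxa10 and 0.34 ± 0.21 (SE) at Hoxb9, followed by 0.32 at Hoxb1 and -0.24 at Hoxa11. Hoxb4 was at -0.21, Hoxd11 at -0.20 and Hoxb3 at 0.20. Hoxb3, which acts in the hindbrain and neck, had the smallest unadjusted p of the Hox probes there, 0.123. It had 7.85, 7.95 and 7.97 in homozygous embryos and 7.93, 7.86 and 8.03 in heterozygous embryos, against 7.68 and 7.81 in wild type embryos, so neither group overlapped the wild type. The 95% interval for Hoxa10, -1.38 to 0.37, includes the difference of -0.95 between homozygous and wild type embryos. That for Hoxa9, -0.64 to 0.41, ends short of the difference of -0.76 seen there. The latter has its own 95% interval, -1.285 to -0.2365, and the 2 intervals overlap. Both comparisons use the same 2 wild type arrays, so these intervals do not tell whether heterozygous and homozygous embryos differ at Hoxa9. The direct comparison, homozygous minus heterozygous embryos, gave -0.65 at Hoxa9. Its 95% interval was -1.12 to -0.18, with an adjusted p of 0.391 by limma.

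Probes of Hoxa6 and Hoxa13 were above background on 0 arrays and Hoxd13 on 1, that of wild type embryo 13, so no difference is given for them. Hoxa13 and Hoxd13 act in the tips of the limbs and in the hindgut and genital region.

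Genes around and above the Hox clusters were taken from lists. No list had a gene past the test in homozygous embryos against the others. Evx1, the homeobox gene next to the posterior end of the Hoxa cluster, had 4.53, 4.87 and 4.47 in homozygous embryos, against 4.94, 5.42 and 5.18 in heterozygous and 5.56 and 5.30 in wild type embryos. It was above background on 2 of 3 homozygous and 5 of 5 other arrays, so it was tested only through the groups in which it was higher, and its values are given as a description. Of 7 tested neighbours and other homeobox genes, 5 were lower, where 60.2% of all probes were. The 5 include Evx1, which entered only through that filter. Gsx1 was at -0.57, while Hibadh, which lies beyond Evx1, was at 0.12.

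Hox cofactors, the Pbx and Meis proteins that bind DNA with Hox proteins, had a median of -0.02 over 7 tested, with Pbx3 at -0.24, Meis3 at 0.14 and Meis2 at -0.09. Factors and signals that switch Hox genes on or set their borders had a median of -0.04 over 18 tested, with 2 of 18 higher and 3 of 18 lower at an unadjusted p under 0.05, against 6.63% and 13.4% of all probes. Among them Rxra, a partner of the retinoic acid receptors, was at 0.57 with an adjusted p of 0.089, Rxrg was at -0.29 and Egr2, a hindbrain factor, at -0.57. The largest differences in the list were those of Lin28a, at 0.73 with an adjusted p of 0.297, and Nr6a1, at 0.61 with an adjusted p of 0.3. Cdx1, Cdx2 and Cdx4, which activate central and posterior Hox genes, were at 0.12, -0.03 and -0.05. The Polycomb list, whose proteins keep Hox genes silent, had a median of 0.04 over 16, with 6 lower and 10 higher. Cbx8 was at 0.29, Cbx7 at 0.62 and Ezh1 at 0.33, while Phc3 was at -0.67, Bmi1 at -0.30 and Eed at -0.19. Phc3 had 5.76, 5.69 and 3.79 in homozygous embryos 2, 7 and 16, against 5.01 to 6.11 in the others, so its difference rests on embryo 16. Cbx7 had 5.93, 6.41 and 7.16, against 5.74 to 6.03, with embryo 16 the highest. Ezh1 had no usable value in homozygous embryo 2. The Trithorax list, whose proteins keep them active, had a median of 0.06 over 11, with Ash2l at -0.29, Ash1l at 0.36 and Kdm6b at 0.37.

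Markers of the tissues in which posterior Hox genes are expressed, and of the head, were read beside them. Limb bud genes had a median of -0.00 over 12 tested of 13 with a probe. The sum of the intensities of 11 of them was 6694 to 7230 in homozygous embryos and 6795 to 7167 in the others. Such sums weigh bright genes most. Here Prrx2, Msx1 and Msx2 made up most of it, with mean log2 signals of 11.1, 11.1 and 10.6 in homozygous embryos, against 8.02 at Pitx1. Of the 12, 6 were lower, among them the hindlimb gene Pitx1 at -0.37, and 6 were higher, among them Sall4 at 0.64 and Shh at 0.23. Tbx4, also of the hindlimb, was above background on 2 of 3 homozygous and 3 of 5 other arrays and lay at the floor in homozygous embryo 2, so no size is given for it. Tail bud genes had a median of -0.04 over 12 tested of 13 with a probe, with 7 lower and 5 higher. Their sums were 2852 to 2953 in homozygous and 2364 to 3290 in the other embryos. Wnt3a was at 0.48, with heterozygous embryo 10, at 9.12, above homozygous embryos 2 and 7, at 8.99 and 8.84. Somite derivatives had a median of -0.16 over 11 tested, with 3 of 11 lower at an unadjusted p under 0.05 (Meox2, Pax9 and Nkx3-2), against 13.4% of all probes, and sums of 4659 to 4884 in homozygous and 4537 to 5193 in the other embryos. Spinal cord and hindbrain genes had a median of 0.01 over 8 tested, and kidney and gut genes one of -0.07 over 12 tested. Head genes had a median of 0.02 over 15 tested, with sums of 6650 to 8041 in homozygous and 6813 to 7704 in the other embryos, with 7 lower and 8 higher. En2 was at 0.42 and Otx2 at 0.28, while En1 was at -0.41, Lhx2 at -0.41 and Barhl2 at -0.32. In each of these lists the homozygous sums overlapped those of the other embryos. Genes of blood, liver, heart, neurons and cartilage, a check that whole embryos were used, were tested at 9 of 9 probes. Their median was -0.01, with 5 lower and 4 higher. The liver and yolk sac genes Ttr and Afp were at -1.26 (adjusted p 0.0855) and -0.84, and Stmn2 was at -0.57. The 4 higher were Krt8 at 0.44, Myl7 at 0.36, Actc1 at 0.22 and Col2a1 at 0.18. A list of extraembryonic genes had a median of -0.03 over 3 tested of 6, Psg17, Hand1 and Cdx2. Cdx2 also stands in the tail bud and gut lists, and Tpbpa and Elf5 were not tested, so this median does not measure placental tissue. The part of tissue makeup in the posterior Hox values was not tested.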

How the data were processed

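The authors' deposited array files give, per the file headers, the mean spot signal, the local background median and their difference as an intensity for each of 35587 spots. The deposited value table holds the same intensity divided by 1 factor per array, 48.6 to 88.5. Background-corrected intensities of 34967 gene probes were quantile-normalized with limma 3.58.1 in R 4.3.3, given a floor at the 5th percentile of positive values (4.50, or 2.17 on the log2 scale) and put on the log2 scale. Spots marked unusable were set missing and saturated spots kept. Tests covered the probes above background in every embryo of 1 or more genotypes: 23389 in all, 30 of them Hox. limma's lmFit and eBayes gave two-sided tests, homozygous against the other 5 embryos, and a model of 3 genotype means for the rest, with Benjamini-Hochberg adjustment over all tested probes and a threshold of 0.05. Median scaling, cyclic loess, normexp, other floors and filters, and leaving out embryos were alternatives. The code was tested on simulated data. Full values per embryo were printed for the Hox probes with the 3 largest differences or 3 smallest p-values in a comparison, and for bright or dim examples. The array number limits precision, and the embryos are separate animals. Probes were matched by RefSeq accession through a GRCm38.p6 table; promoters came from RefSeq. The members and lists were chosen with earlier results of these data known. 1 Hox gene is not reported here.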

Additional observations from a re-analysis of the deposited data

Results flagged for a closer look

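Hoxb1 stood out in 1 embryo. Heterozygous embryo 10 had a log2 signal of 10.09, while the other 4 heterozygous and wild type embryos lay between 9.11 and 9.34, and the gap to the nearest took 0.762 of the range. This was 1 of 30 Hox probes examined for a lone value among the 5 embryos, and chance gives about 1 in 20. Without embryo 10, the difference at Hoxb1 in heterozygous minus wild type embryos was 0.05.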

How the results depend on the processing

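Of 517 values under alternatives, 515 kept their direction and their side of the threshold. These values cover the Hox probes with the largest differences or smallest p-values in each comparison, and some further probes, mostly posterior. No Hox probe passed in the main setting, so a side could change only by passing. Probes outside this set changed sign more often. In homozygous minus the other embryos, Hoxb1, Hoxb2 and Hoxb3 were each lower in 2 of 21 alternatives, Hoxb4 in 1, Hoxa3 in 5 and Hoxb6 in 14. Leaving out 1 embryo gave -0.656 to 0.069 at Hoxc10, which turned without homozygous embryo 2, and 0 to 1 Hox probes past the test in homozygous minus the other embryos, the 1 being Hoxd3 without homozygous embryo 7. The median Hox difference in homozygous minus the other embryos was -0.335 with arrays scaled to their median and -0.369 in the deposited values, against -0.124 in the main setting. It was -0.41 and -0.445 against -0.192 in homozygous minus wild type embryos, and -0.285 and -0.318 against -0.144 in homozygous minus heterozygous embryos. With 1 embryo left out it ran from -0.168 to -0.087, from -0.249 to -0.059 (without wild type embryo 13) and from -0.169 to -0.07 in these comparisons. In heterozygous minus wild type embryos it ran from -0.124 (without wild type embryo 11) to 0.02. Counts of all probes past the test moved more. In homozygous minus the other embryos, 25 became 42 under cyclic loess, 45 in the deposited values, 84 under normexp, 50 with probes above background on all 8 arrays, 6 with no filter, 99 with array weights, 118 with a trended robust prior, 57 with a Y-linked covariate, 70 without embryos 10 and 16 (chosen after seeing the data) and 5 to 314 with 1 embryo left out. In homozygous minus wild type embryos, 8 became 27 under median scaling, 20 under cyclic loess, 27 in the deposited values, 36 under normexp, 5 with a floor at the 1st percentile, 4 with no filter, 5 with marked spots kept, 186 with array weights, 48 with the trended prior, 13 with the Y-linked covariate, 0 with only the groups compared, 33 without embryos 10 and 16 and 0 to 42 with 1 embryo left out. In heterozygous minus wild type embryos, 0 became 2 under median scaling, 1 under cyclic loess, 2 in the deposited values, 1 with array weights, 1 with the trended prior, 9 without embryos 10 and 16 and 0 to 3 with 1 embryo left out. In homozygous minus heterozygous embryos, 5 became 10 under median scaling, 9 under cyclic loess, 12 in the deposited values, 11 under normexp, 16 with the trended prior, 33 without embryos 10 and 16 and 4 to 58 with 1 embryo left out. The causes were not tested. Scan and slide blocks were not run, since each array had its own. No paired analysis was possible because the genotypes share no embryo number. With 1 wild type embryo left out, the lone one is assumed to vary like the other groups.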
